A study of Mus musculus with 14 samples.

Results

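The interleukin 1 (IL-1) and tumour necrosis factor (TNF) genes of fibroblast cultures from mouse lung and skin are described here: the ligands Il1a, Il1b, Il33 and Tnf, the antagonist Il1rn, and the receptors Il1r1, Il1rl1, Tnfrsf1a and Tnfrsf1b. These 9 genes were chosen by name, and all 9 were found among the 48795 gene identifiers of the count table. Fibroblasts had grown out of pieces of lung or dorsal skin from mice of 8 to 10 weeks, given as male. They were harvested at day 14, unstimulated, on tissue culture plastic. The labels give 5 libraries of wild-type lung (numbered 1, 23, 3, 4 and 5), 4 of Rel-/- lung (7, 8, 9 and 10), 2 of wild-type skin (11 and 22) and 3 of Rel-/- skin (18, 19 and 20), all of strain C57BL/6J. Rel is the gene of the NF-kappaB subunit c-Rel. The labels do not say whether the libraries of a group came from separate mice, and p-values can therefore reflect technical spread alone.

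IL-1 alpha and IL-1 beta bind the same receptor, the product of Il1r1, which signals together with the accessory protein made by Il1rap; Il1rn encodes the antagonist that occupies that receptor without activating it. IL-33, a cytokine stored in the nucleus and released from damaged cells, binds ST2, the product of Il1rl1, with the same accessory protein. Il1rl1 gives rise to a membrane receptor and to a soluble decoy, and a count per gene holds both. TNF binds TNFR1 (Tnfrsf1a), found on most cells, and TNFR2 (Tnfrsf1b), abundant on leukocytes. These receptors activate NF-kappaB, the family to which c-Rel belongs. Fibroblasts are known as responders to IL-1 and TNF, and stromal cells as a source of IL-33.

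Rel was read, in CPM (counts scaled to the library total, in counts per 1000000), at 6.27, 17.3, 12.9, 1.10 and 12.4 in wild-type lung and at 0.0651, 4.06, 1.39 and 3.80 CPM in libraries labelled Rel-/- lung. In skin it was at 11.5 and 10.9 CPM in wild type and at 0.0349, 9.42 and 9.47 CPM in libraries labelled Rel-/-. Rel-/- skin 19 and 20 thus read Rel near the wild-type level, and wild-type lung 4 read it below Rel-/- lung 8, 9 and 10. A count per gene does not show which part of Rel was read, and the labels were kept. Wild-type skin 22 had 2663437 counts in total, and the other 13 libraries 12780350 to 30987933. Among genes with a mean of at least 5 CPM in the other libraries of the tissue, the libraries Rel-/- lung 7, wild-type skin 11, wild-type lung 4 and Rel-/- skin 18 had no count at 11.5%, 8.22%, 5.78% and 3.37%, against at most 0.728% in the other 10 libraries. Low or zero values in those 4 libraries are given with that in view. Rel-/- lung 10 carries a treatment label that says skin, while its title and source say lung. Wild-type lung 1 and wild-type skin 22 read Xist although the mice are given as male, and fits without them are given below. The 10 fibroblast markers summed to between 12693 and 145130 CPM, and none was at 0 in a group. Lung cultures also held leukocyte RNA: 19 leukocyte and macrophage genes reached a summed level of 5953 to 23256 CPM in the wild-type and 9441 to 28864 CPM in the Rel-/- group, against 56.7 to 76.9 and 99.0 to 161 CPM in skin. In these bulk samples fewer cells of a type and less RNA per cell cannot be told apart.

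The sequences upstream of the genes whose tissue difference passed the test, or which were at 0 counts in a whole group, show what lies directly in front of their start sites. The windows hold the 250 bases before each RefSeq start (GRCm38.p6, gene strand, 5′ to 3′), and capitals mark the motif TATAAA on either strand. Il1rl1 has 2 start sites 10059 bases apart, at the windows chr1:40429320-40429569 and chr1:40439379-40439628 on the plus strand. Il33 has windows at chr19:29924863-29925112 and chr19:29945540-29945789 on the plus strand. The windows of Tnfrsf1b at chr4:145246871-145247120, Il1b at chr2:129371140-129371389 and Tnf at chr17:35202008-35202257 are on the minus strand.
Il1rl1, upstream start: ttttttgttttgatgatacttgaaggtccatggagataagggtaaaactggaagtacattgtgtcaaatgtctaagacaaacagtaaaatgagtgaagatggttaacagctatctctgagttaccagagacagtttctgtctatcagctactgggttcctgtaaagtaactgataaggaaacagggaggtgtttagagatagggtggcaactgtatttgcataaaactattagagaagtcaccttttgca
Il1rl1, downstream start: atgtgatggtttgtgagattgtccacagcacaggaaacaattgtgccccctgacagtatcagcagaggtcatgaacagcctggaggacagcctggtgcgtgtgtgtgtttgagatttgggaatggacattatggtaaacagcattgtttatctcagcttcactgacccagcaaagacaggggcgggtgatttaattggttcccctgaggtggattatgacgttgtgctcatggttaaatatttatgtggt
Il33, upstream start: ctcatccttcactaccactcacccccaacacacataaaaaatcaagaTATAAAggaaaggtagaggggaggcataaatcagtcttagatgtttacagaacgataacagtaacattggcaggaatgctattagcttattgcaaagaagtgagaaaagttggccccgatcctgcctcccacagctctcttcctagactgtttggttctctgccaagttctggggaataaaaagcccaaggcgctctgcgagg
Il33, downstream start: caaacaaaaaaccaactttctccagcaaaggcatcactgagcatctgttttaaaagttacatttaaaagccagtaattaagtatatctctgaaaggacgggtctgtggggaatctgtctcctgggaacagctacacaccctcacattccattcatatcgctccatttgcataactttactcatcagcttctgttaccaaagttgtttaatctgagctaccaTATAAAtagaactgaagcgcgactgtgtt
Tnfrsf1b: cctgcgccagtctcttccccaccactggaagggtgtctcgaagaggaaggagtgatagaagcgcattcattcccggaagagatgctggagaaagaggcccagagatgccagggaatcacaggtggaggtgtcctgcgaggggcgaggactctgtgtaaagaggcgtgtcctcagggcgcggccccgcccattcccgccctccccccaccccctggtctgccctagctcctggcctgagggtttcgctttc
Il1b: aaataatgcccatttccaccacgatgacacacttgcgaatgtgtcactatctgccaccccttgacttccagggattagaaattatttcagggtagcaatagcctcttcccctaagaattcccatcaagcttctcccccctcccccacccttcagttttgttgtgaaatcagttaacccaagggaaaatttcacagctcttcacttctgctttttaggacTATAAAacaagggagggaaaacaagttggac
Tnf: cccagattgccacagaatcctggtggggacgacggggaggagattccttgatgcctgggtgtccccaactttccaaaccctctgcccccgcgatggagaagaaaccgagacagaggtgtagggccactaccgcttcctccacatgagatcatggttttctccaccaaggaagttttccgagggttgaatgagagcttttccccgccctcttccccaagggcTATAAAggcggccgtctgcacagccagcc

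Each of the 9 genes matched at least 1 RefSeq window, 14 in all. TATAAA occurred in 5 of the 14 windows, those of Il1a, Il1b, Tnf and both of Il33, and in 12.37% of 32851 such windows of all genes. In Il1b it lay 31 to 26 bases before the start, in Tnf 29 to 24 bases and in the downstream Il33 window 29 to 24 bases, whereas in the upstream Il33 window it lay 203 to 198 bases away. The AP-1 motif TGANTCA occurred in 1 window each of Il1a and Il1rn (6.749% of all windows). The NF-kappaB consensus occurred in 1 window, the downstream one of Il1r1 (7.251% of all windows). The windows of Il1rl1, Tnfrsf1a and Tnfrsf1b held none of the 3 motifs. A match is only a run of letters, and these windows cover a small part of each gene's regulatory sequence.

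Il1rl1, which encodes the IL-33 receptor ST2, was higher in skin than in lung in both genotypes. It lies on GRCm38 chromosome 1 (40429570-40465415, plus strand). It was at 0, 15.2, 0.871, 13.2 and 2.52 CPM in wild-type lung libraries 1, 23, 3, 4 and 5 and at 4.43, 1.79, 4.34 and 9.99 CPM in Rel-/- lung libraries 7, 8, 9 and 10. In skin it was at 1499 and 416 CPM in wild type and at 1653, 1684 and 2077 CPM in Rel-/-. Every skin library stood above every lung library. The skin mean was 151 times the lung mean in wild type and 351 times in Rel-/-. The log2 fold change was 7.21 ± 1.15 (SE) in wild type and 8.33 ± 1.29 in Rel-/-, with adjusted p of 0.00201 and 0.00100 by edgeR's quasi-likelihood test with Benjamini-Hochberg adjustment over 16408 genes. The two-sided exact permutation p was 0.0476 and 0.0286, the smallest that 21 and 35 splits allow. The wild-type value was 5.81 without wild-type skin 11, 7.90 without wild-type skin 22 and 7.87 without wild-type lung 23, and the Rel-/- value was 8.92 without Rel-/- lung 10. All 24 alternatives kept both calls. The genes whose level over the 14 libraries was most like Il1rl1 were Brinp3 (Pearson r = 0.952), the homeobox gene Irx2 (0.951) and Znhit6 (0.950), given with no test because the libraries fall into 2 tissues.

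Mast cells, the classical ST2-positive cell of skin, were nearly unread: 8 mast cell markers summed to at most 4.13 CPM in wild-type skin and 0.453 CPM in Rel-/- skin, and 6 of the 8 were at 0 in each skin group, among them Cpa3, Cma1, Mcpt4 and Tpsb2. Lymphocyte markers were at 0 in wild-type skin and summed to at most 1.02 CPM in Rel-/- skin. Keratinocyte markers summed to 35.7 to 56.7 CPM in wild-type skin and 1313 to 3306 CPM in Rel-/- skin, with 19.5 to 39.5 CPM in lung, and their part in the result was not tested.

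Il33 ran the other way. It lies on chromosome 19 (29925114-29960718, plus strand) and was at 77.4, 106, 173, 91.7 and 222 CPM in the wild-type lung group and at 30.0, 110, 147 and 207 CPM in Rel-/- lung. In wild-type skin it was at 0.0430 CPM, a single count, in library 11 and at 10.1 CPM in library 22, and in Rel-/- skin at 34.9, 22.1 and 17.1 CPM. Both wild-type skin libraries lay below every lung library, while Rel-/- skin 18 overlapped Rel-/- lung 7. Il33 fell by 5.31 ± 1.29 on the log2 scale from wild-type lung to wild-type skin (adjusted p = 0.0359, exact permutation p = 0.0476). That value was -4.05 (adjusted p = 0.0717) without wild-type skin 11 and -11.5 (adjusted p = 0.000754) without wild-type skin 22. The call was kept in 17 of 24 alternatives. It was also lost when wild-type lung 3 (0.0682) or 5 (0.0657), Rel-/- lung 8 (0.0511) or Rel-/- skin 19 (0.0537), all part of the fit, was left out. In Rel-/- cultures the difference was -2.46 ± 0.90 (adjusted p = 0.139), past the threshold in 7 of 24 alternatives. Most like Il33 were Vsir (r = 0.959), the matrix gene Fbln1 (0.956) and the lactate transporter gene Slc16a3 (0.956).

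**Figure D1:**
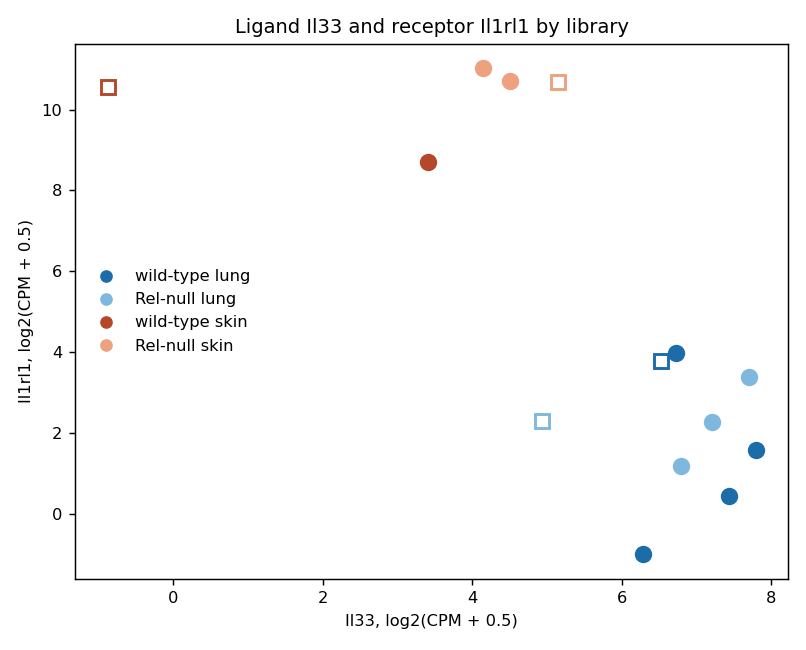
Il33 (horizontal axis) and Il1rl1 (vertical axis) in each of the 14 libraries, both as log2(CPM + 0.5); colours give the group and open squares the 4 libraries with the most genes at 0. Lung libraries lie at high Il33 and low Il1rl1 and skin libraries at the opposite corner, with wild-type skin 11 at the far left on a single Il33 count.

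Set per kilobase of merged exon, so that 2 genes can be compared, Il1rl1 stood at 0 to 0.0602 of the Il33 level in wild-type lung libraries and 0.00681 to 0.0617 in Rel-/- lung libraries. In Rel-/- skin the ratio was 19.8 to 50.7, and in wild-type skin 17.2 in library 22. In wild-type skin 11 it was 14585, which rests on 1 count of Il33. The lung cultures thus read the ligand above the receptor in all 9 libraries, and the skin cultures the receptor above the ligand in all 5.

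Among TNF receptors, Tnfrsf1b differed between the tissues more than Tnfrsf1a. Tnfrsf1b (chromosome 4, 145213463-145246870, minus strand) was at 290, 242, 349, 301 and 399 CPM in the wild-type lung group and 189, 454, 372 and 469 CPM in Rel-/- lung. In skin it was at 128 and 48.1 CPM in wild type and 38.3, 76.0 and 76.0 CPM in Rel-/-, below every lung library. Tnfrsf1b fell by 2.69 ± 0.45 on the log2 scale from lung to skin in Rel-/- cultures (adjusted p = 0.00186, exact permutation p = 0.0286), a call kept in all 24 alternatives. In wild type it fell by 1.99 ± 0.50 (adjusted p = 0.0433, exact permutation p = 0.0476), a call kept in 9 of 24 alternatives, with -1.41 (adjusted p = 0.182) without wild-type skin 22 and -3.05 (adjusted p = 0.0292) without wild-type skin 11. Leaving out any wild-type lung library, Rel-/- lung 8 or 9, or Rel-/- skin 19 or 20 also ended the wild-type call, with adjusted p of 0.0548 to 0.0855.

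Tnfrsf1a (chromosome 6, 125349362-125362484, plus strand) was at 364, 251, 351, 277 and 409 CPM in the wild-type lung group and 147, 385, 395 and 389 CPM in Rel-/- lung, against 244 and 171 CPM in wild-type skin and 178, 223 and 178 CPM in Rel-/- skin. Both wild-type skin libraries were below every wild-type lung library (exact permutation p = 0.0476), but the edgeR difference of -0.87 ± 0.42 did not pass (adjusted p = 0.390), nor did the Rel-/- one of -0.90 ± 0.37 (adjusted p = 0.190). The wild-type difference passed in 0 of 24 alternatives and the Rel-/- one in 3. It was -1.07 by limma-voom (adjusted p = 8.97e-04) and -1.14 by edgeR without Rel-/- lung 7 (adjusted p = 0.0242), the library with the most genes at 0. Per kilobase, Tnfrsf1b stood at 0.541 to 0.871 of Tnfrsf1a in lung libraries and 0.146 to 0.358 in skin libraries, without overlap. Most like Tnfrsf1a were Tnfsf13b (r = 0.943), which encodes the B cell factor BAFF, Fam234a (0.942) and the coagulation factor gene F7 (0.939).

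Between tissues the 19 leukocyte and macrophage genes moved with Tnfrsf1b. By edgeR 17 of the 19 were lower in skin in the wild-type comparison and 18 in the Rel-/- one; Siglecf, and in wild type Chil3, did not pass. Examples are Lyz2, macrophage lysozyme, at -8.22 ± 0.96 (adjusted p = 2.44e-04) in wild type and -7.70 ± 0.78 (adjusted p = 3.40e-05) in Rel-/-, and Cd68 at -6.50 ± 0.69 (adjusted p = 1.45e-04) and -6.58 ± 0.57 (adjusted p = 1.85e-05). In wild-type lung 1, 23, 5, 4 and 3 the 19 genes summed to 5953, 15612, 18615, 19726 and 23256 CPM. Tnfrsf1b was at 290, 242, 399, 301 and 349 CPM there. In Rel-/- lung 7, 9, 10 and 8 they summed to 9441, 24240, 25243 and 28864 CPM. Tnfrsf1b was at 189, 372, 469 and 454 CPM in these. Among skin libraries Tnfrsf1b was highest in wild-type skin 11 (128 CPM), where the 19 genes summed to 76.9 CPM. It was lowest in Rel-/- skin 18 (38.3 CPM), where they summed to 159 CPM. Both of these skin libraries are among the 4 with the most genes at 0. The part of the 19 genes in the receptor's difference was not tested. The genes whose level over the 14 libraries was most like Tnfrsf1b were Siglec1 (Pearson r = 0.975), a macrophage sialoadhesin, Cybb (0.971), the phagocyte NADPH oxidase subunit, and Vegfd (0.969), a lymphatic growth factor. Across 14 libraries that fall into 2 tissues such values describe mainly the tissue split and carry no test.

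**Figure D2:**
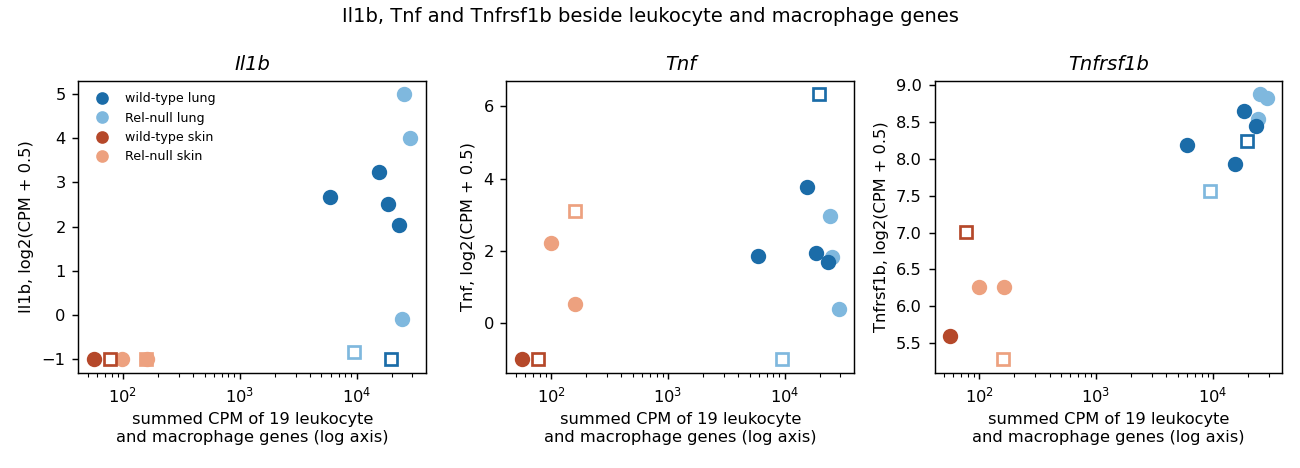
Il1b, Tnf and Tnfrsf1b as log2(CPM + 0.5) in each of the 14 libraries against the summed CPM of 19 leukocyte and macrophage genes on a log axis; colours give the group and open squares the 4 libraries with the most genes at 0. Il1b is read only in lung libraries and Tnfrsf1b is highest there, at sums of 5953 CPM or more, whereas Tnf is also read in the 3 Rel-/- skin libraries, whose sums are 161 CPM or less.

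Il1b, the inflammasome-processed cytokine, was not read in skin at all. It lies on chromosome 2 (129364570-129371139, minus strand) and was at 5.84, 9.00, 3.58, 0 and 5.22 CPM in the wild-type lung group and at 0.0651 (1 count), 15.6, 0.434 and 31.4 CPM in Rel-/- lung, while all 5 skin libraries had 0 counts. Against a floor of 3 counts over the skin group, wild-type lung was at least 39.1-fold higher and Rel-/- lung at least 226-fold higher. Without wild-type skin 11 the first bound was 4.02, since wild-type skin 22 is shallow; the second was 103 without Rel-/- lung 10 and 113 without Rel-/- skin 18. edgeR passed neither (adjusted p = 0.289 and 0.0635), while DESeq2 passed both (0.0235 and 6.47e-05). The lowest lung values were in wild-type lung 4 and Rel-/- lung 7, both with many genes at 0. Wild-type skin 11 and Rel-/- skin 18, at 0 counts of Il1b, also had many genes at 0. The 19 leukocyte and macrophage genes differ between the tissues in the same direction, and their part was not tested. The genes most like Il1b were the long non-coding RNA 2610300M13Rik (r = 0.977), the receptor gene Gpr55 (0.960) and the complement gene C7 (0.952), all 3 at 0 in every skin library.

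Il1a, whose product is active without inflammasome cleavage, lies beside Il1b (chromosome 2, 129299610-129309972, minus strand) but had another pattern. It was at 2.74, 18.9, 2.87, 14.8 and 8.45 CPM in the wild-type lung libraries, 0, 8.16, 2.65 and 18.6 CPM in Rel-/- lung, 21.4 and 1.13 CPM in wild-type skin, and 19.6, 24.9 and 43.8 CPM in Rel-/- skin. All 3 Rel-/- skin libraries lay above all 4 Rel-/- lung libraries, but the difference of 1.83 ± 1.27 on the log2 scale did not pass (adjusted p = 0.502, exact permutation p = 0.0571). Keratinocyte markers, read at 1313 CPM or more in those same skin libraries, were at 37.2 CPM or less in Rel-/- lung; their part was not tested. The genes most like Il1a were Dpep1 (r = 0.917), a membrane dipeptidase, Dact2 (0.882) and the glutaredoxin gene Glrx (0.869). The overlapping gene Gm14023 had 47 counts over all libraries.

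Tnf (chromosome 17, 35199381-35202007, minus strand) was at 3.10, 13.1, 2.74, 80.1 and 3.32 CPM in the wild-type lung group and 0, 0.812, 7.29 and 3.07 CPM in Rel-/- lung. It had 0 counts in both wild-type skin libraries and stood at 8.02, 0.955 and 4.15 CPM in Rel-/- skin. A single library, wild-type lung 4, held most of the wild-type lung signal. Wild-type skin was at least 166-fold lower than wild-type lung, or at least 43.1-fold without wild-type lung 4 and at least 17.1-fold without wild-type skin 11 (adjusted p = 0.102 by edgeR and 1.26e-04 by DESeq2). Rel-/- skin was at least 37.8-fold higher than wild-type skin, or 3.88-fold without wild-type skin 11 and 20.6-fold without Rel-/- skin 18 (adjusted p = 0.699). The larger bounds rest on the 0 count of wild-type skin 11, which had no count at 8.22% of expressed genes. Most like Tnf were Pcdhb2 (r = 0.868), Trim12a (0.850) and Fam162a (0.833).

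The antagonist Il1rn and the receptor Il1r1 did not pass between tissues by edgeR with all libraries. Il1rn (chromosome 2, 24336853-24351494, plus strand) was at 11.6, 24.6, 18.3, 42.8 and 15.2 CPM in the wild-type lung libraries, 0.0651 (1 count), 8.93, 23.5 and 18.7 CPM in Rel-/- lung, 0 and 15.0 CPM in wild-type skin, and 21.5, 24.6 and 12.8 CPM in Rel-/- skin. Its lowest values were in Rel-/- lung 7 and wild-type skin 11, the libraries with the most genes at 0. The genes most like it, Depdc5 (r = 0.981), Tinf2 (0.975) and C2cd2 (0.965), were at 0 in Rel-/- lung 7 and at 0, 0 and 0.387 CPM in wild-type skin 11. Apart from those, Il1rn was between 8.93 and 42.8 CPM in all 12 other libraries. The skin minus lung value of Il1rn was -1.892 ± 1.603 (adjusted p = 0.712) in wild type and 0.47 ± 1.28 (adjusted p = 0.923) in Rel-/-. The wild-type value passed at -7.49 by limma-voom (adjusted p = 0.0277), at -11.9 without wild-type skin 22 (adjusted p = 0.0333) and at -12.1 without both that library and wild-type lung 1 (adjusted p = 0.0388). In the last 2 fits the only wild-type skin library left is number 11, at 0 counts.

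Il1r1 (chromosome 1, 40225080-40317257, plus strand), upstream of Il1rl1 on the same strand, was read in every library. It was at 195, 214, 144, 166 and 227 CPM in the wild-type lung group and 73.3, 159, 113 and 237 CPM in Rel-/- lung. In skin it was at 346 and 106 CPM in wild type and 102, 212 and 169 CPM in Rel-/-. Its groups overlapped in all 4 comparisons. The skin minus lung difference was 0.11 ± 0.49 in wild type (adjusted p = 0.977) and 0.01 ± 0.45 in Rel-/- (adjusted p = 1.00). The genes most like it were Islr (r = 0.894), Plpp3 (0.881) and Aoc3 (0.862). Gm38070, which overlaps Il1r1 on the same strand, had 243 counts over all libraries.

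**Figure D3:**
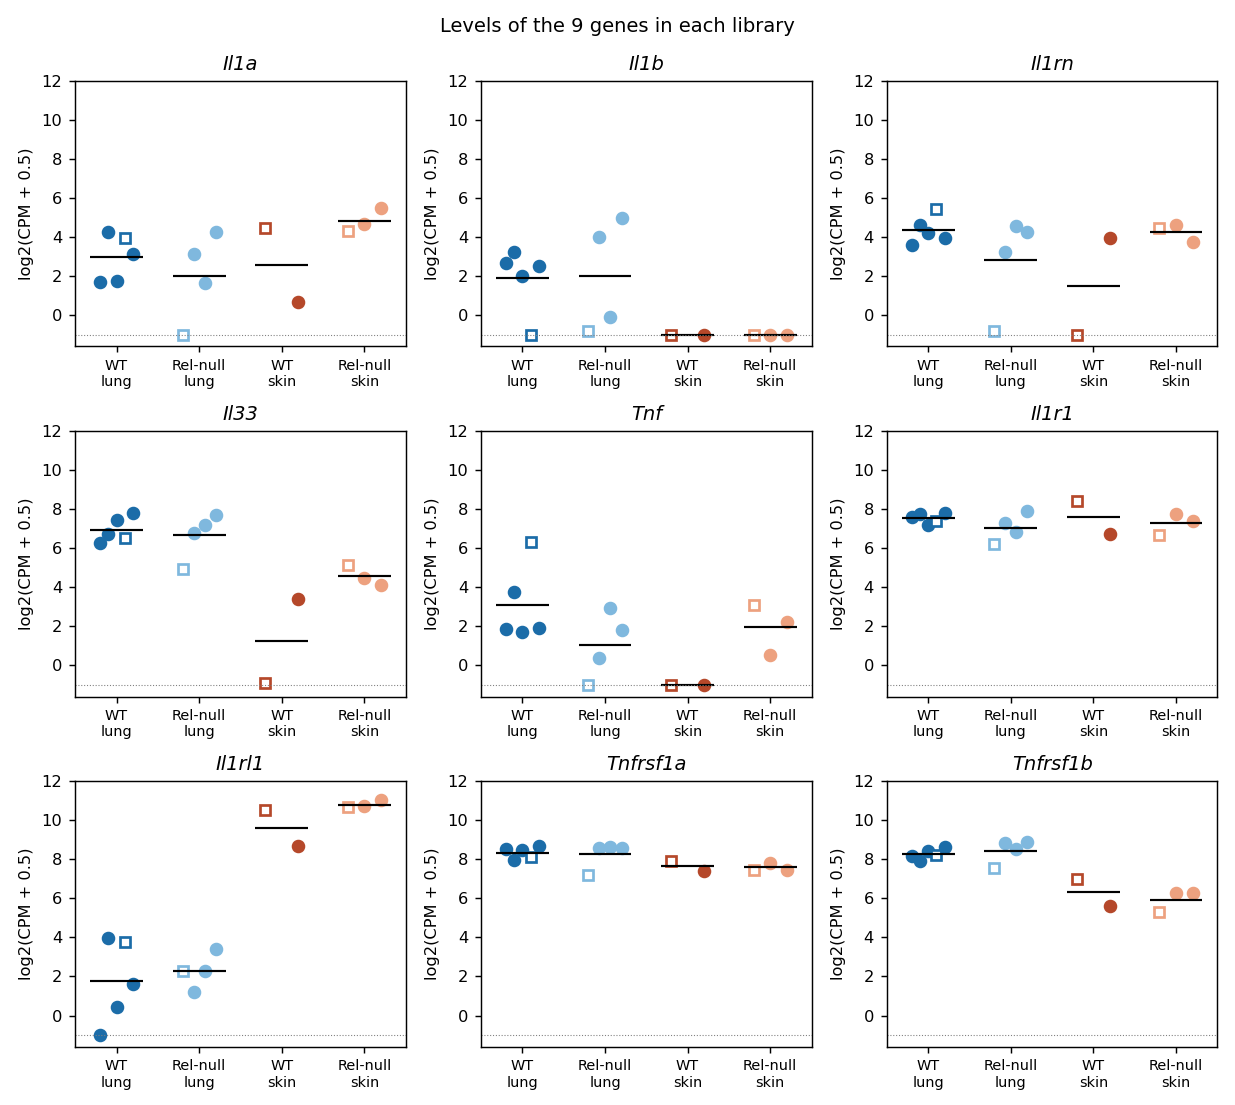
Levels of the 9 genes in each library as log2(CPM + 0.5), by group; the horizontal bar is the group mean, the dotted line a count of 0, and open squares mark the 4 libraries with the most genes at 0. Il1rl1 is higher in every skin library, Il33 and Tnfrsf1b are lower in both wild-type skin libraries than in every lung library, Il1b lies on the dotted line in all 5 skin libraries, and Il1r1 overlaps between groups.

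Of the 9 genes, 3 passed the edgeR threshold between wild-type tissues, where 2.97% of all genes tested passed. Il1rl1 was higher in skin, as were 0.902% of all genes, and Il33 and Tnfrsf1b were lower, as were 2.07%. Between Rel-/- tissues 2 passed, against 5.05% of all genes. Il1rl1 was higher (1.82% of all genes) and Tnfrsf1b lower (3.23%). DESeq2 passed 5 of the 9 between wild-type tissues (7.51% of all genes) and 4 between Rel-/- tissues (10.8%), and limma-voom 3 (4.03%) and 6 (27.4%). Groups of libraries did not overlap at 5 of the 9 genes in wild type (19% of all genes) and at 4 in Rel-/- (20.9%). The median log2 fold change over the 9 genes was -1.89 in wild type and 0.01 in Rel-/-, against -0.13 and -0.01 over all genes tested.

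On the scale of CPM per kilobase, Tnfrsf1a was highest in lung with 127 ± 25.1 (SD, n = 5) in wild type and 127 ± 46.9 (n = 4) in Rel-/-, followed by Tnfrsf1b at 82.9 ± 15.7 and 97.1 ± 33.7, Il33 at 46.4 ± 21.2 and 42.8 ± 25.6 and Il1r1 at 29.7 ± 5.34 and 22.9 ± 11.0. Il1rl1 was lowest in lung, at 0.921 ± 1.05 and 0.745 ± 0.502. In skin Il1rl1 was highest, at 139 ± 111 (n = 2) in wild type and 262 ± 34.3 (n = 3) in Rel-/-, followed by Tnfrsf1a at 80.0 ± 19.8 and 74.4 ± 10.2, Il1r1 at 35.5 ± 26.6 and 25.3 ± 8.70 and Tnfrsf1b at 23.1 ± 14.9 and 16.6 ± 5.69. Several of these gaps were smaller than the SD of the higher gene. Among them were Il33 to Il1r1 in both lung groups and Tnfrsf1a to Tnfrsf1b in Rel-/- lung. In wild-type skin Il1rl1 to Tnfrsf1a and Il1r1 to Tnfrsf1b were such gaps too. In the order of group means within a gene, neighbouring groups were apart at Il1rl1 (Rel-/- skin, wild-type skin, then lung) and Il33 (Rel-/- skin above wild-type skin). They were also apart at Tnfrsf1b (wild-type lung above wild-type skin), and at no other pair of neighbours. Of all genes tested, 25.1% had groups apart between the skin genotypes, 13.7% with Rel-/- higher, and 19% between wild-type tissues.

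The comparison of Rel-/- with wild-type cultures asked whether these genes differ between the genotype labels. The lung groups overlapped in Rel: wild-type lung 4, with many genes at 0, read 1.10 CPM, below Rel-/- lung 8, 9 and 10. The edgeR value of Rel between the lung groups was -2.09 ± 1.28 and did not pass (adjusted p = 0.863). The lung contrast therefore does not fully separate cultures by Rel level. In lung no gene passed edgeR's adjustment (0%), and none of the 9 had an unadjusted p under 0.05, as 6.31% of all genes did (1036 genes); DESeq2 passed 51 genes (0.311%) and limma-voom 6 (0.0366%), none of them among the 9. Tnf was furthest from 0, at -2.76 ± 1.43 (edgeR p = 0.0726, adjusted p = 0.801, exact permutation p = 0.151), and its value was -0.96 without wild-type lung 4. The other 8 ranged from -0.76 ± 1.15 for Il1rn to 1.32 ± 1.59 for Il1b. The best determined were Tnfrsf1a at -0.04 ± 0.32, Tnfrsf1b at 0.21 ± 0.36 and Il1r1 at -0.40 ± 0.40. Groups overlapped at all 9 genes, against 2.29% of genes with groups apart.

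In skin no gene passed either (0%), and 2 of the 9, Il33 and Tnf, had an unadjusted p under 0.05, against 6.24% of all genes (1024 genes); DESeq2 passed 153 genes (0.932%), none of the 9, and limma-voom 300 (1.83%), among them Il1rn. Il33 was 2.72 ± 1.19 higher on the log2 scale in Rel-/- skin (edgeR p = 0.0366, adjusted p = 0.784, exact permutation p = 0.1), with all 3 Rel-/- libraries above both wild-type ones. Without wild-type skin 22 the value was 8.93 ± 1.54 (adjusted p = 0.00456), which then rests on the 1 count of wild-type skin 11. Il1rl1, Il33 and Tnf were the 3 genes whose skin groups did not overlap, all higher in Rel-/-. Of all genes 25.1% did not overlap, 13.7% with Rel-/- higher. The exact permutation p was 0.1 for Il1rl1 and Il33, the smallest possible, and 0.2 for Tnf. Keratinocyte markers moved with them (35.7 to 56.7 CPM in wild type, 1313 to 3306 CPM in Rel-/-), and their part was not tested. Of the 19 leukocyte and macrophage genes 9 had an unadjusted edgeR p under 0.05 and none passed the adjustment, with sums of 56.7 and 76.9 CPM in wild-type skin and 99.0 to 161 CPM in Rel-/- skin, and their part was not tested either. Because Rel-/- skin 19 and 20 read Rel near the wild-type level, this contrast does not separate cultures by Rel level. Rel itself had an edgeR value of -0.80 ± 1.62 here, far from the threshold (adjusted p = 0.987).

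The genotype effects in skin and lung differed at none of the 9 genes by edgeR (0% of all genes passed, and 766, or 4.67%, had an unadjusted p under 0.05, with Tnf among them). The difference was 2.85 ± 1.38 at Il33 (adjusted p = 1.00), and 9.05 ± 1.59 (adjusted p = 0.00565) without wild-type skin 22. Tnf, at 0 in wild-type skin, had an adjusted p of 0.869 by edgeR and 0.0124 by DESeq2, which passed 0.609% of all genes; limma-voom passed 1.06% and none of the 9.

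**Figure D4:**
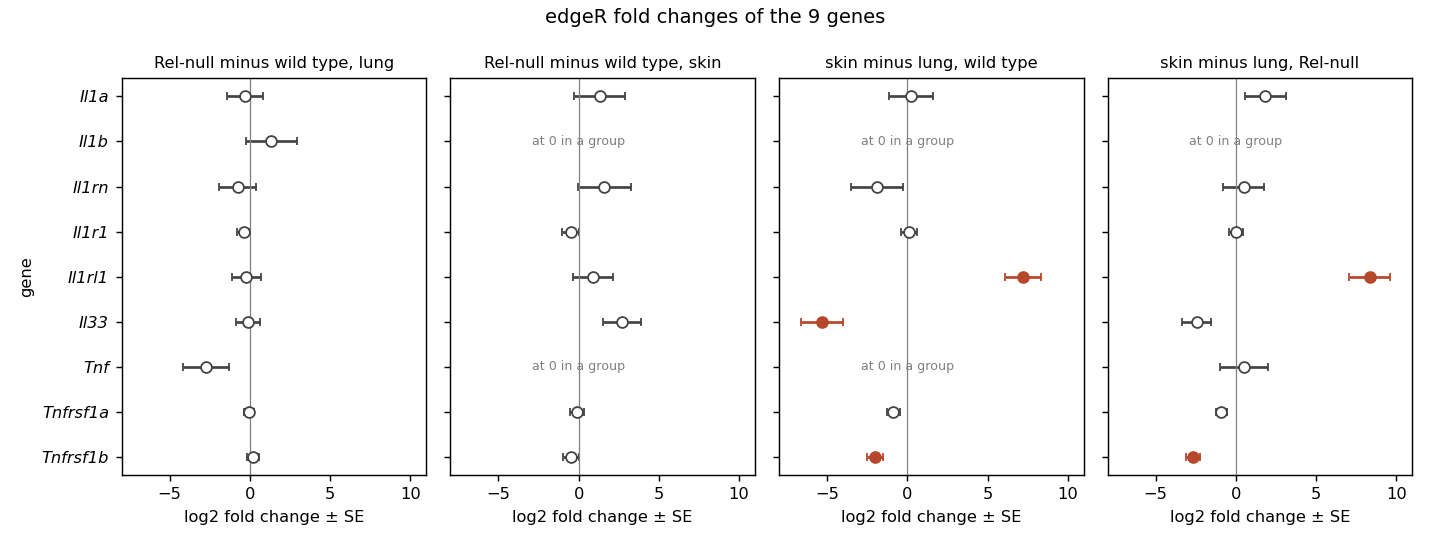
Log2 fold change ± SE (edgeR, horizontal axis) of the 9 genes (vertical axis) in the 4 comparisons of 2 groups; filled points passed an adjusted p of 0.05, and grey text stands where a group had 0 counts in every library. Filled points are Il1rl1 and Tnfrsf1b in both tissue comparisons and Il33 in the wild-type one, and no genotype comparison has a filled point.

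Of 14 other genes of the IL-1 family, 10 were found in the table and 8 were tested. Il1rap, needed by both IL-1 receptor and ST2, was at 40.6, 108, 46.5, 98.7 and 42.1 CPM in the wild-type lung libraries, 31.8, 55.5, 31.9 and 34.2 CPM in Rel-/- lung, 221 and 107 CPM in wild-type skin and 129, 213 and 175 CPM in Rel-/- skin. It rose by 2.05 ± 0.39 on the log2 scale from Rel-/- lung to Rel-/- skin (adjusted p = 0.00495), whereas the wild-type difference was 1.17 ± 0.41 (adjusted p = 0.171) and the lung genotype difference -0.79 ± 0.35 (adjusted p = 0.781). Il1rap was the only one of the 8 to pass in any comparison, and 5.05% of all genes tested passed between Rel-/- tissues, 1.82% as higher in skin. Il1rl2, an IL-36 receptor, was at 18.6 to 72.0 CPM in the 14 libraries. The decoy receptor Il1r2 reached 14.8 CPM, Il18rap 20.4 CPM, Il18 14.2 CPM, its binding protein Il18bp 8.25 CPM, Sigirr 5.32 CPM, Il18r1 4.36 CPM and Il1f10 1.92 CPM, and each was at 0 in at least 1 library. In the lung genotype comparison Il1rap had the smallest p of the list, followed by Il18r1 (2.10 ± 1.73, adjusted p = 0.959). In skin Il18r1 had the smallest, at 0 CPM in both wild-type libraries against 4.36, 2.48 and 2.58 CPM (adjusted p = 0.784). Sigirr was next in skin (adjusted p = 0.825).

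Of 17 genes for IL-1 processing and signal transduction, none passed in any comparison; the smallest p in lung belonged to Capn1 (0.57 ± 0.26, adjusted p = 0.781) and Traf6 (0.92 ± 0.52, 0.828) and in skin to Pycard (4.53 ± 2.05, 0.784) and Irak4 (-1.22 ± 0.59, 0.784). Of 21 genes for TNF shedding and the receptor complex, 19 were tested and 1 passed, between Rel-/- tissues. Of all genes tested, 5.05% passed between those tissues, 1.82% as higher in skin, and 2.97% passed between wild-type tissues. Ripk3, the necroptosis kinase, rose by 1.82 ± 0.48 from Rel-/- lung to Rel-/- skin (adjusted p = 0.0361), and the value was 2.58 ± 0.37 without Rel-/- lung 7. Leaving out any of wild-type lung 3 and 5, Rel-/- lung 8 to 10 or Rel-/- skin 18 to 20 ended that call (adjusted p of 0.0507 to 0.191). The smallest p of this list belonged in lung to Birc2 (-0.46 ± 0.32, 0.910) and Casp8 (0.50 ± 0.36, 0.917), and in skin to Rhbdf2, a regulator of TNF shedding (1.45 ± 0.39, 0.434), and Rbck1 (0.83 ± 0.43, 0.784).

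A list of 22 genes that IL-1 and TNF induce in fibroblasts was tested in full. Between Rel-/- tissues 20 of the 22 had a value above 0 and 2 below. The threshold was passed by 6 as higher in skin and by 1 as lower, against 1.82% and 3.23% of all genes. Cxcl5 and Cxcl1, neutrophil chemokines, rose by 5.54 ± 0.99 (adjusted p = 0.00295) and 5.37 ± 1.40 (0.0363), the monocyte chemokines Ccl2 and Ccl7 by 4.03 ± 0.82 (0.00731) and 3.12 ± 0.57 (0.00324), and the cytokine Lif by 5.77 ± 1.05 (0.00323). Without Rel-/- lung 9 the values of Ccl2 and Ccl7 were 4.87 and 3.87. Csf3, granulocyte colony-stimulating factor, was at 39.5, 37.1 and 27.5 CPM in Rel-/- skin and at 0 in all 4 Rel-/- lung libraries (adjusted p = 0.0240). The calls of Cxcl1 and Csf3 were lost on leaving out any of Rel-/- lung 8 to 10 or Rel-/- skin 18 to 20, and that of Cxcl1 also without wild-type lung 23 (adjusted p of 0.0503 to 0.103). Icam1, an adhesion molecule for leukocytes, fell by 2.36 ± 0.33 (3.96e-04), and also between wild-type tissues, by 3.88 ± 0.43 (1.65e-04), with skin libraries at 9.76 to 37.9 CPM and lung libraries at 91.8 to 146 CPM. Between wild-type tissues 12 of the 22 had a value above 0 and 10 below. Only Cxcl5 passed as higher in skin, by 3.84 ± 0.89 (0.0279), against 0.902% of all genes passing as higher and 2.07% as lower. That value was -1.61 (adjusted p = 0.695) without wild-type skin 11, which read 3281 CPM against 44.7 CPM in wild-type skin 22, and 4.82 without wild-type skin 22, and the call was also lost without wild-type lung 1, 3, 4 or 5. The median log2 fold change of the 22 genes was 3.04 in Rel-/- and 0.25 in wild-type tissues, against -0.01 and -0.13 over all genes. The wild-type median was -2.53 without wild-type skin 11 and 0.68 without wild-type skin 22. Keratinocyte and leukocyte markers moved between the same groups, and their part was not tested.

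None of the 22 response genes passed in a genotype comparison. In lung 21 of 22 had a value below 0 and 10 an unadjusted edgeR p under 0.05, against 9022 below 0 and 6.31% under 0.05 among all 16408 genes, with a median of -1.41 against -0.08 over all genes; by limma-voom the median was -0.57 with 18 below 0. The 22 genes summed to 9866 and 12425 CPM in wild-type lung 23 and 4 and to at most 6077 CPM in the other lung libraries. Lung epithelial markers moved the same way: 6 of 7 tested had a value below 0, with a median of -2.82, and the 11 listed summed to 131 and 193 CPM in those libraries and to at most 41.8 CPM in the other lung ones. Their part was not tested. Lif was at 82.1, 106, 4.65, 120 and 6.50 CPM in the wild-type lung group and 0.716, 4.44, 3.56 and 4.61 CPM in Rel-/- lung (-4.22 ± 0.94, adjusted p = 0.781). Wild-type lung 3 and 5 were thus close to the Rel-/- libraries. Mmp3, the matrix metalloproteinase stromelysin, had a value of -2.09 ± 0.65 (adjusted p = 0.781). In skin 17 of 22 were above 0 with a median of 0.81, against 0.01 over all genes. Without wild-type skin 22 the median was 0.08 with 11 above 0, and without wild-type skin 11 it was 3.49 with 20 above 0. The 22 genes summed to 20602 CPM in wild-type skin 11 and to 1407 CPM in wild-type skin 22. Icam1 (1.28 ± 0.39, adjusted p = 0.522) and the NF-kappaB inhibitor gene Tnfaip3 (2.21 ± 0.82, adjusted p = 0.699) had the smallest p. The skin minus lung difference of the genotype effects was above 0 at all 22 genes, with a median of 2.20 against 0.14 over all genes, and passed at none. That difference draws on the same wild-type skin libraries.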

How the data were processed

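RNA was sequenced from explant fibroblast cultures, 14 libraries in all. The authors deposited raw read counts per Ensembl gene; per the submitters' processing notes FastQC 0.11.2, Trimmomatic 0.33, STAR 2.4.2a and GRCm38 were used, with no role or order given. The library kit is directional per the labels' protocols, but which tool counted reads, and with which strand setting, is not given in the sources used here, so reads of genes on opposite strands may be shared. Symbols, exons and coordinates came from GENCODE M21, which holds 48349 of the 48795 identifiers.

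CPM are counts on the raw library totals. The fit was edgeR 4.0.16 under R 4.3.3 (TMM, filterByExpr, quasi-likelihood F test, 4 group means over all 14 libraries, Benjamini-Hochberg over 16408 genes, threshold 0.05). Common dispersion was 0.948. The code was run on simulated counts with a smaller dispersion and large planted changes, which does not show its power at the spread of these data. Single genes were compared by two-sided exact permutation tests of log2(CPM + 0.5), 35 in all, unadjusted, of which 6 had p under 0.05. Of a group at 0 counts, folds are bounds against 3 counts over the group; these cover counting error only, since reads are not independent molecules. Alternatives were RLE and upper-quartile factors, other filters, DESeq2 1.42.0, limma-voom (limma 3.58.1) with quality weights, fits of the groups compared, and omission of libraries.

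The 9 genes and all lists were chosen with earlier results of these data known. Other genes are named if they passed in a comparison, had 1 of the 2 smallest p of a pathway list in a genotype comparison, belong to the IL-1 family and reach 1 CPM, or were among the 3 most correlated with a member; of the marker lists only examples are named. The alternatives for the response list were chosen after seeing the data. Promoter windows are from RefSeq.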

Additional observations from a re-analysis of the deposited data

Results flagged for a closer look

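Tnf in wild-type lung 4, at 80.1 CPM, stood far above the other 4 wild-type lung libraries, whose highest value was 13.1 CPM. Tnfrsf1a in Rel-/- lung 7, at 147 CPM, stood far below the other 3 Rel-/- lung libraries, at 385 to 395 CPM. Both libraries are among the 4 with the most genes at 0 counts. Of 18 groups of 4 or 5 libraries, all of lung, 2 stood out by Dixon's gap test on CPM. For normally distributed values chance flags about 1 in 20, and CPM need not follow that distribution.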

How the results depend on the processing

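The called values of the 9 genes (Il1rl1 and Tnfrsf1b in both tissue comparisons, Il33 in the wild-type one) kept their sign in all 24 alternatives. Among genotype comparisons, the number of genes called in lung (0) was 5 with no low-count filter, 51 by DESeq2, 6 by limma-voom, 2 with only the groups compared, 6 without the 4 libraries with the most genes at 0, and 2 without Rel-/- skin 19 and 20; leaving out 1 library gave 0 to 2. In skin (0) it was 3 with upper-quartile factors, 58 with no filter, 153 by DESeq2, 300 by limma-voom, 2 with only the groups compared, 87 without those 4 libraries, 439 without wild-type lung 1 and wild-type skin 22 (which read Xist although the mice are given as male), and 55 without Rel-/- skin 19 and 20; leaving out 1 library gave 0 to 421. Of the 9 genes, limma-voom called 1 (Il1rn) and the fit without the Xist-reading libraries 1 (Il33), and leaving out 1 library 0 to 1. For the difference of the effects (0) the counts were 31 with no filter, 100 by DESeq2, 174 by limma-voom, 31 without the 4 libraries, 365 without the Xist-reading ones, 31 without Rel-/- skin 19 and 20, and 0 to 370 on leaving out 1 library; DESeq2 called 1 of the 9 (Tnf), the fit without the Xist-reading libraries 1 (Il33), and leaving out 1 library 0 to 1. It could not be fitted with only the groups compared.

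Between wild-type tissues (487 genes, 3 of the 9) the counts were 782 with no filter, 1233 by DESeq2, 858 without the 4 libraries, 1044 without the Xist-reading ones and 258 to 1050 on leaving out 1 library. Of the 9, DESeq2 called 5, only the groups compared 1, the fit without Rel-/- skin 19 and 20 1, and leaving out 1 library 1 to 4. Between Rel-/- tissues (2 of the 9) the counts were 1770 by DESeq2, 4501 by limma-voom, 2171 without the 4 libraries, 409 without Rel-/- skin 19 and 20 and 410 to 1323 on leaving out 1 library. Of the 9, 4 were called with no filter, 4 by DESeq2, 6 by limma-voom, 5 without the 4 libraries and 2 to 4 on leaving out 1 library. Of the exact tests, 6 had p under 0.05, and 2 to 5 on leaving out 1 library. Fewer libraries allow larger smallest p-values; otherwise the cause was not tested. No paired analysis was possible because no replicate number is shared between groups. Depth limits wild-type skin 22, where 3 counts equal 1.13 CPM.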
